A study of Ovis aries with 49 samples.

Results

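Genes used as markers of brown and beige adipocytes (CIDEA, EBF2, ZIC1, LHX8 and KCNK3) and the beta-adrenergic receptors ADRB1 and ADRB3 were followed through 5 adipose depots of young lambs. The members were chosen by gene symbol, and each of the 7 lay on 1 of the 10273 probe sets of the table: 221295_at for CIDEA, 220392_at for EBF2, 206373_at for ZIC1, 1569469_a_at for LHX8, 228127_at for KCNK3, 208214_at for ADRB1 and 217303_s_at for ADRB3. RNA of whole tissue pieces from twin lambs of a Bluefaced Leicester cross Swaledale flock was hybridised to Affymetrix Human U133 Plus 2 arrays, which carry probes against human transcripts. Epicardial (on the heart), omental, perirenal, sternal and subcutaneous fat was taken at 7 and at 28 days of age, giving 10 groups, of 4 arrays in the case of subcutaneous fat at 7 days and of 5 arrays otherwise. All animals were untreated as far as the labels tell, and in the study 1 twin was sampled at each age. The study fed some mothers a standard diet and others the same diet with added canola oil. The diet of the mothers is not among the labels. Single arrays are named below by their titles, in which 1W stands with 7 days and 4W with 28 days. Arrays of different depots can share the last number of the title, but the labels do not say that it is an animal. The study describes 5 depots taken from 5 animals at each age, whereas the titles hold 7 numbers at 7 days and 8 at 28 days. Different depots can thus come from the same lamb, which the main fits do not model. A fit with the title number as a block is among the alternatives. Each p-value below rests on the spread from array to array, which may be partly technical.

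Brown adipocytes burn lipid to make heat through UCP1, the uncoupling protein of the inner mitochondrial membrane, and beige adipocytes are cells of white depots that can take up the same programme. EBF2 is a transcription factor that opens brown fat genes in precursor cells, ZIC1 and LHX8 are developmental transcription factors used in rodents to tell classical brown from beige or white fat, CIDEA is a lipid droplet protein abundant in brown fat, and KCNK3 is a background potassium channel found in thermogenic adipocytes. Noradrenaline from sympathetic nerves reaches these cells through beta-adrenergic receptors, which raise cyclic AMP and thereby drive lipolysis and UCP1 transcription. ADRB1 is also the main beta receptor of heart muscle, and ADRB3 is the receptor typical of rodent adipocytes. Large newborn mammals such as sheep are born with UCP1 in several depots and lose it in the weeks after birth.

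Values are log2 signals as deposited, so 1 unit is a 2-fold difference. The labelled tissue could be checked only weakly. Of 7 adipocyte markers 4 were measured (FABP4, LPL, PPARG and CIDEC), their mean ran from 2.58 to 3.23 over the arrays, and FABP4 gave its most frequent value in every array of epicardial and subcutaneous fat at 28 days. ADIPOQ, PLIN1 and LEP were not analysed here. Muscle genes were clear in some samples. The mean of 6 measured cardiac muscle genes (ACTC1, TNNI3, RYR2, MYL2, MYH6 and MYH7) was 6.58 to 9.57 in epicardial fat at 7 days and 2.76 to 9.31 at 28 days. The muscle enzyme CKM was above 4 in 4 sternal or subcutaneous arrays at 7 days and in 5 at 28 days. In epicardial fat CKM read 8.06 to 11.6 at 7 days and 2.76 to 10.5 at 28 days. One epicardial array at 28 days, EpC_C_4W_01_141, had the cardiac mean of 2.76. Its Euclidean distance over all probe sets was 32.9 to the mean of the other epicardial arrays. It was 25.4 to perirenal, 27.1 to omental, 28.4 to subcutaneous and 36.4 to sternal fat. TCF21 read 8.28 in it, 7.64 to 8.07 in the other epicardial arrays and 5.23 to 6.36 in perirenal arrays of that age. HOXC6 read 2.49 in it, 2.49 to 2.55 in the other epicardial arrays and 6.78 to 7.10 in those perirenal arrays. The called differences of the members that involve epicardial fat at that age are given with and without it. In whole tissue fewer cells of a type cannot be told apart from less RNA per cell.

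Many values of the 7 genes sat on a value that recurred from array to array. The most frequent value of each probe set was taken to within 0.01, and 177 of the 343 member values (51.6%) sat there, against 49.7% of all values in the table. Another 37 member values (10.8%) were over 0.5 above it, against 6.80% in the table. These raised arrays were unevenly spread over the genes: 14 for LHX8, 9 for ZIC1, 6 for ADRB1, 3 each for CIDEA and KCNK3, and 1 each for EBF2 and ADRB3. The SD of LHX8, ZIC1 and ADRB1 over the 49 arrays exceeded that of 98.4%, 97.0% and 94.9% of probe sets. No member averaged 4 or more, and arrays at the most frequent value have no order among themselves.

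**Figure D1:**
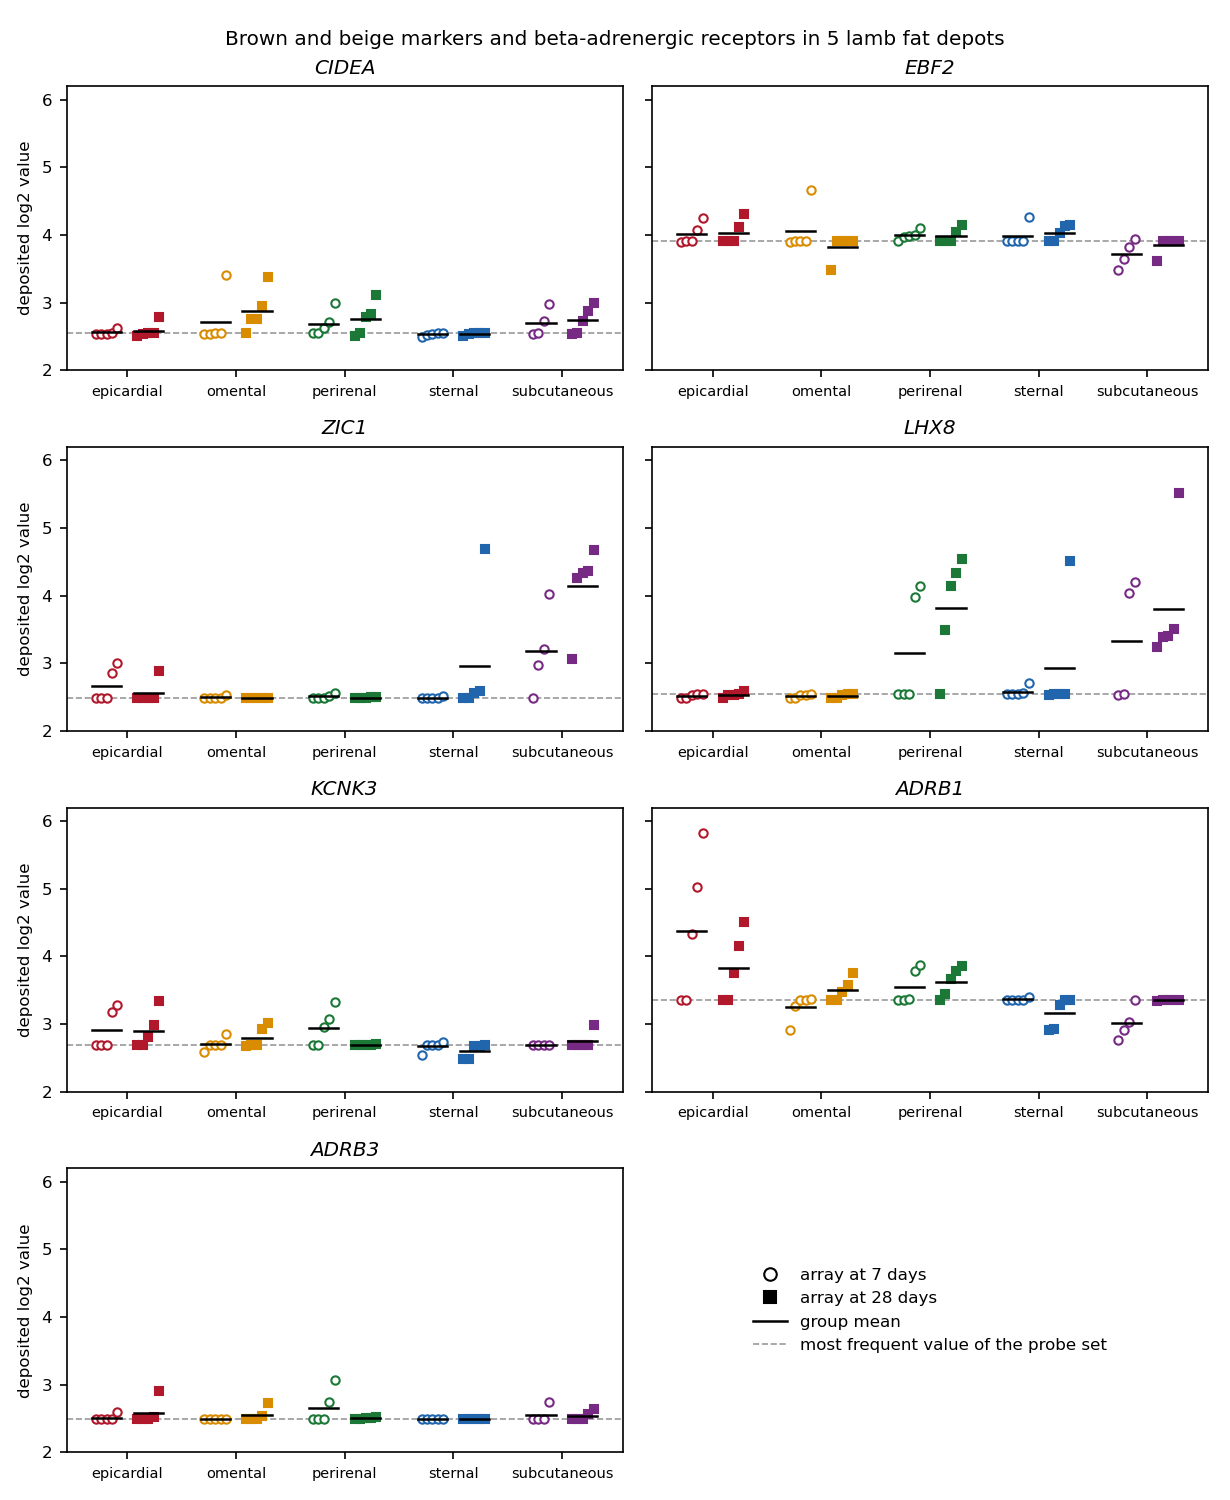
Deposited log2 value (y axis) of the 7 genes in each of the 49 arrays, by depot (x axis), with open circles for 7 days, filled squares for 28 days, a bar for the group mean and a dashed line for the most frequent value of the probe set. Points leave the dashed line mainly for ZIC1 in subcutaneous fat, LHX8 in subcutaneous and perirenal fat and ADRB1 in epicardial fat.

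Depots differed for 3 of the 7 genes at 28 days and for 0 of 7 at 7 days, by limma's F test over the 5 depots with Benjamini-Hochberg adjustment over all probe sets and a threshold of 0.05. The 3 were ZIC1 (adjusted p = 0.00153), LHX8 (0.0304) and ADRB1 (0.0437), and 20.0% of all probe sets passed the same test. At 7 days 8.16% of all probe sets passed, and 2 members had an unadjusted p under 0.05, ADRB1 (adjusted p = 0.0533, and 0.0115 or 0.0119 without EpC_C_1W_32_105 or EpC_C_1W_37_115) and ZIC1 (0.0602, and 0.00277 without Su_C_1W_111_130). At 28 days the ADRB1 call was lost without any 1 of 19 of the 25 arrays (adjusted p up to 0.0985). Between single depots, 3 of 70 member differences were called at 7 days against 2.60% over all probe sets, and 6 of 70 at 28 days against 6.86%. When each depot was set against the mean of the other 4, 2 of 35 differences were called at either age, against 2.69% of all such differences at 7 days and 6.96% at 28 days. With 7 genes these counts are too small to set the shares of the members apart from those of the whole table. When the depots were ordered by their mean for each gene and age, 1 of 56 neighbouring pairs differed by limma, ZIC1 in subcutaneous against sternal fat at 28 days. Neighbours in such an order are the closest depots by construction, and the share over all probe sets was not counted. The count therefore shows only that most of these orders are unsettled.

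**Figure D2:**
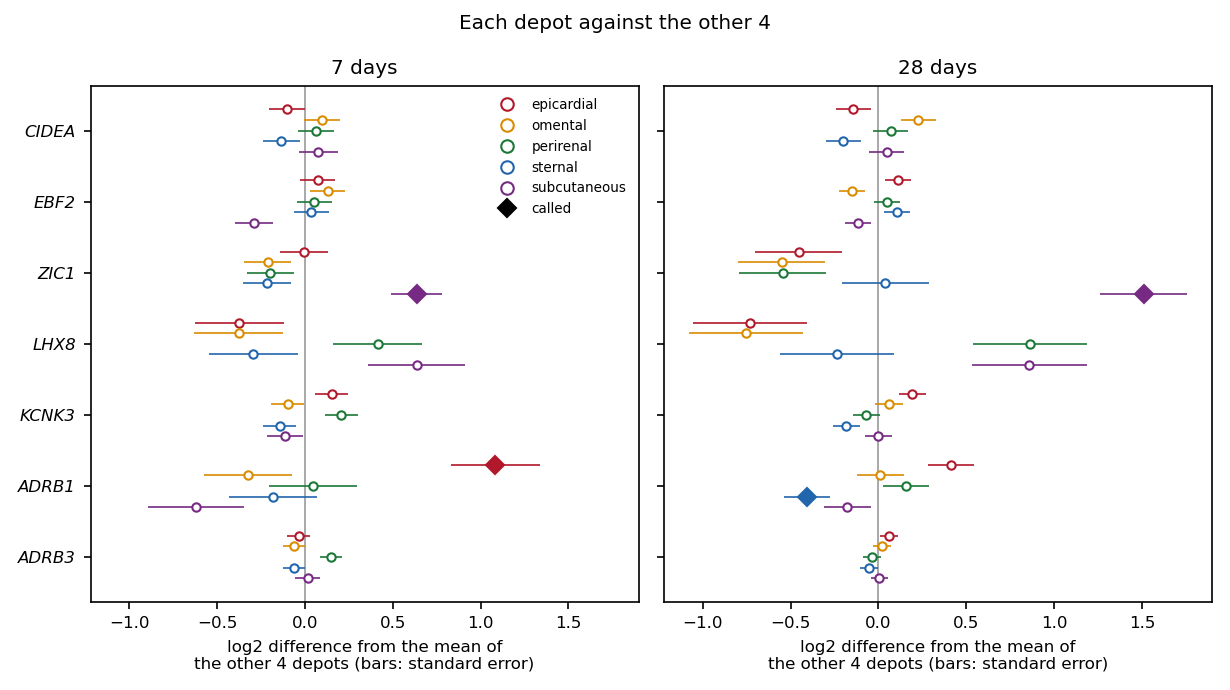
Log2 difference of each depot from the mean of the other 4 (x axis) with its standard error, for the 7 genes (y axis) at 7 days (left) and 28 days (right), with colours for depots and filled diamonds for differences at an adjusted p of at most 0.05. Called differences are ZIC1 in subcutaneous fat at both ages, ADRB1 in epicardial fat at 7 days and ADRB1 in sternal fat at 28 days.

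ZIC1 was the gene with the clearest place, subcutaneous fat. At 28 days the 5 subcutaneous arrays read 3.06, 4.26, 4.34, 4.36 and 4.67, while the 5 omental arrays all read 2.49, the perirenal arrays 2.49 to 2.51 and the epicardial arrays 2.49 to 2.88 (2.88 in EpC_C_4W_04_155). Every subcutaneous array lay above every omental, perirenal and epicardial one. Sternal fat read 2.49, 2.49, 2.56, 2.59 and 4.68, so a single sternal array reached the subcutaneous range. The subcutaneous mean was 4.14 ± 0.62 (SD, n = 5), higher than the mean of the other 4 depots by 1.51 (SE 0.25, adjusted p = 0.00101). Set against subcutaneous fat singly, the log2 difference was -1.65 for omental (adjusted p = 0.00483), -1.64 for perirenal (0.00425), -1.57 for epicardial (0.00498) and -1.18 for sternal fat (0.0156), all with SE 0.31. Without EpC_C_4W_01_141 the epicardial difference was -1.55 (adjusted p = 0.0112), and without St_C_4W_42_146, the sternal array in the subcutaneous range, the sternal one was -1.61 (adjusted p = 1.44e-05). The difference from the other 4 depots was called under every alternative setting and with any 1 array left out. The sternal difference lost its call after quantile normalization (-1.01, adjusted p = 0.0758) and with only these 2 depots in the fit (0.22). With the title number as a block both the sternal and the epicardial difference (adjusted p = 0.0732 for the latter) lost their calls.

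At 7 days ZIC1 was again highest in subcutaneous fat. The 4 subcutaneous arrays read 2.49, 2.97, 3.21 and 4.03 (mean 3.18 ± 0.64, SD), the epicardial arrays 2.49 to 3.003, and no omental, perirenal or sternal array exceeded 2.57. One subcutaneous array was thus at the most frequent value and overlapped all depots. Subcutaneous fat was higher than the other 4 depots by 0.63 (SE 0.15, adjusted p = 0.0319) and perirenal minus subcutaneous fat was -0.67 (SE 0.18, adjusted p = 0.039). The perirenal call was lost without any 1 of the 5 perirenal arrays or without Su_C_1W_108_105 or Su_C_1W_110_126 (adjusted p = 0.053 to 0.0897). The call against the other 4 depots was lost without Su_C_1W_110_126 (0.35, adjusted p = 0.0999) or Su_C_1W_108_105 (0.62, adjusted p = 0.0725). It was also lost with the title number as a block (adjusted p = 0.116). CKM read 6.35, 11.7 and 12.9 in Su_C_1W_114_122, Su_C_1W_111_130 and Su_C_1W_108_105, whose ZIC1 values were 2.97, 2.49 and 3.21, and was not above 4 in Su_C_1W_110_126, with the ZIC1 value of 4.03. Without those 3 and the 1 sternal array at this age with CKM above 4, which leaves Su_C_1W_110_126 as the subcutaneous group, the difference from the other 4 depots was 1.49, a value that rests on the 1 array with the highest ZIC1 level of its group.

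LHX8 was raised in the same depot and in perirenal fat. At 28 days the subcutaneous arrays read 3.24, 3.39, 3.396, 3.51 and 5.51 (mean 3.81 ± 0.96, SD, n = 5) and the perirenal arrays 2.54, 3.497, 4.14, 4.33 and 4.54 (mean 3.81 ± 0.81). Epicardial and omental arrays all lay between 2.49 and 2.595, below each subcutaneous array, and of the perirenal arrays only PrR_C_4W_32_146 was down among them. Sternal fat read 2.52 to 2.54 in 4 arrays and 4.51 in St_C_4W_42_146. The F test over depots was passed (adjusted p = 0.0304), yet no single pair was, the lowest adjusted p of a pair being 0.104 for epicardial against subcutaneous fat (-1.27). Perirenal and subcutaneous fat each stood 0.86 above the mean of the other depots (SE 0.33), with adjusted p = 0.193 and 0.206. Without any 1 of the perirenal arrays PrR_C_4W_31_141, PrR_C_4W_35_150 and PrR_C_4W_33_153 the adjusted p of the F test was 0.0557 to 0.058. It was 0.0674 after quantile normalization and 0.221 with the title number as a block.

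At 7 days LHX8 divided the arrays within both depots. In perirenal fat PrR_C_1W_66_109 and PrR_C_1W_67_115 read 4.14 and 3.98 and the other 3 arrays 2.54 each. In subcutaneous fat Su_C_1W_111_130 and Su_C_1W_114_122 read 4.04 and 4.20 and the other 2 arrays 2.52 and 2.54. No epicardial, omental or sternal array at this age exceeded 2.71, and no depot difference was called (adjusted p = 0.252, F test). All 14 raised arrays thus lay in subcutaneous (7), perirenal (6) or sternal fat (1).

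ZIC1 and LHX8 were raised in the same subcutaneous arrays at 28 days, but not at 7 days or in perirenal fat. Both were raised in 6 arrays, the 5 subcutaneous arrays at 28 days and the sternal array St_C_4W_42_146, whereas the 6 perirenal arrays with raised LHX8 had ZIC1 between 2.49 and 2.57. In the subcutaneous arrays at 7 days the 2 genes were raised in different arrays, although ZIC1 was just under the margin in Su_C_1W_114_122 (2.97), where LHX8 was raised. St_C_4W_42_146 read 4.68 for ZIC1 and 4.51 for LHX8 beside 12.7 for CKM. Over all probe sets its Euclidean distance was 41.04 to the mean of the other sternal arrays, 43.8 to epicardial and 48.0 to subcutaneous fat. It was 49.4 to perirenal and 50.6 to omental fat. The other sternal arrays each lay only 28.1 to 30.7 from the mean of the rest of their group. Another sternal array, St_C_4W_45_159, had CKM at 11.3 with ZIC1 at 2.56 and LHX8 at 2.54. The part of muscle or of neighbouring tissue in these values was not tested.

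**Figure D3:**
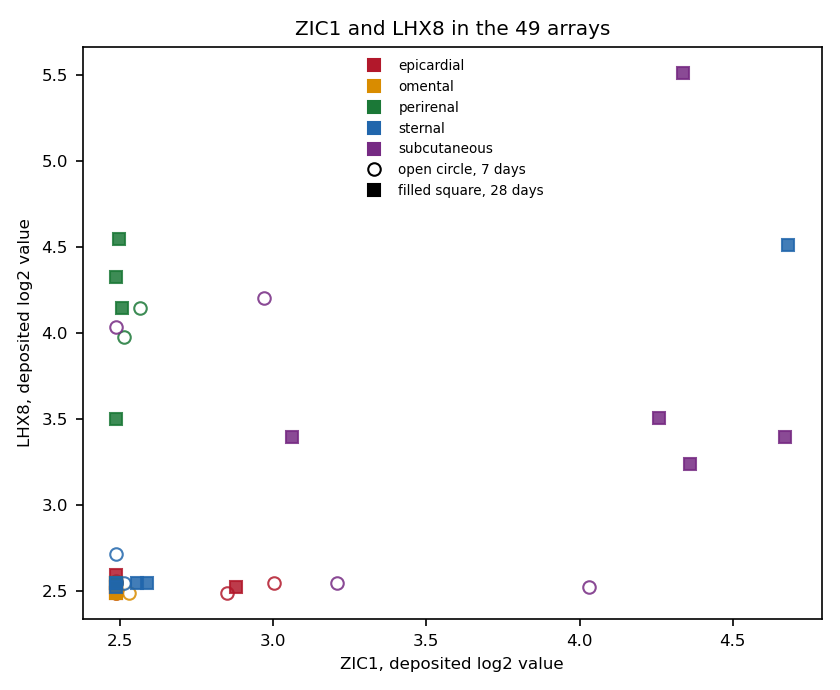
LHX8 (y axis) against ZIC1 (x axis), deposited log2 values, in the 49 arrays, with colours for depots, open circles for 7 days and filled squares for 28 days. Perirenal arrays rise along the y axis alone, and the 6 arrays high in both genes are the 5 subcutaneous arrays at 28 days and 1 sternal array.

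ADRB1, the beta receptor of heart muscle, was highest in epicardial fat. At 7 days the epicardial arrays read 3.35, 3.35, 4.32, 5.03 and 5.82 (mean 4.38 ± 1.07, SD, n = 5), and 3 of them lay above every array of the other depots, which ran from 2.76 to 3.87. The other 2 epicardial arrays sat at the most frequent value, 3.35. Epicardial fat was higher than the mean of the other 4 depots by 1.08 (SE 0.25, adjusted p = 0.0133), than subcutaneous fat by 1.36 (SE 0.34, adjusted p = 0.0316) and than omental fat by 1.13 (SE 0.32, adjusted p = 0.0461). Without EpC_C_1W_35_130 the first of these was 0.92 (adjusted p = 0.0773), and without EpC_C_1W_33_117 it was 0.72 (adjusted p = 0.0428). After quantile normalization it remained called (0.97, adjusted p = 0.0339), while those from subcutaneous (0.0649) and omental fat (0.111) were not. The differences from subcutaneous and from omental fat each lost the call in 4 of 5 alternative settings. The subcutaneous difference also lost its call without EpC_C_1W_38_122, EpC_C_1W_35_130, Su_C_1W_108_105, Su_C_1W_110_126 or Su_C_1W_111_130 (adjusted p = 0.0525 to 0.0947), and the omental one without any 1 of 21 of the 24 arrays (up to 0.133).

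Cardiac muscle genes moved with ADRB1 among the epicardial arrays. At 7 days the arrays with ADRB1 at 3.35 had cardiac means of 6.58 and 7.81 (EpC_C_1W_32_105 and EpC_C_1W_37_115), and those with ADRB1 at 4.32, 5.03 and 5.82 had cardiac means of 8.98, 9.57 and 9.48 (EpC_C_1W_38_122, EpC_C_1W_35_130 and EpC_C_1W_33_117). At 28 days the 2 arrays with ADRB1 at 3.35 had cardiac means of 2.76 and 7.16 (EpC_C_4W_01_141 and EpC_C_4W_04_155), and ADRB1 was 3.75, 4.16 and 4.50 in the arrays with cardiac means of 8.34, 8.28 and 9.31 (EpC_C_4W_03_151, EpC_C_4W_02_146 and EpC_C_4W_05_159). At both ages the 3 highest ADRB1 values were thus in the arrays with the 3 highest cardiac means. Among all probe sets with 1 symbol and a mean of at least 4, the one whose values followed ADRB1 most closely was CDH2, the N-cadherin that joins heart muscle cells, at 7.65 to 9.82 in epicardial fat at 7 days. In perirenal fat, where ADRB1 reached 3.87 at 7 days and 3.85 at 28 days, the cardiac mean was 2.64 to 2.71. Outside epicardial fat the cardiac mean was highest in Su_C_1W_108_105 (6.57, ADRB1 2.76, CKM 12.9) and St_C_4W_42_146 (6.03, ADRB1 3.28, CKM 12.7). The mean of 7 measured skeletal muscle genes (ACTA1, CKM, MYH1, MYH2, MYOZ1, TNNC2 and TNNT3) was 8.64 and 8.27 in these arrays. It was 3.66 to 4.23 in epicardial fat at 7 days. Whether heart or skeletal muscle gave the cardiac means of these 2 arrays was not tested. The part of cardiac tissue in the epicardial ADRB1 level was not tested.

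**Figure D4:**
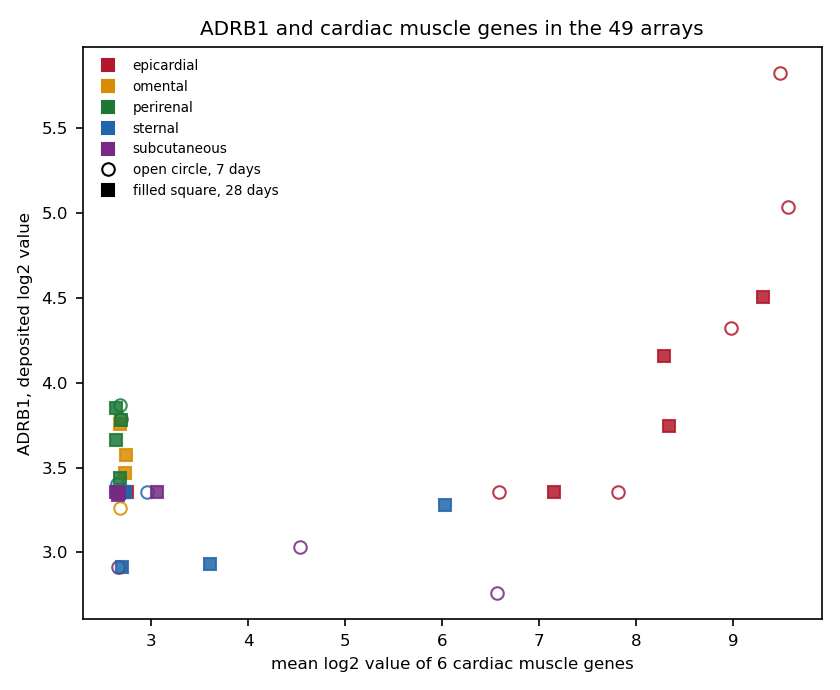
ADRB1 (y axis, deposited log2 value) against the mean log2 value of 6 cardiac muscle genes (x axis) in the 49 arrays, with colours for depots, open circles for 7 days and filled squares for 28 days. ADRB1 values above 4 occur only in epicardial arrays with a cardiac mean of at least 8.28.

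At 28 days the depots lay closer together for ADRB1. The means were 3.82 ± 0.50 (SD, n = 5) in epicardial, 3.62 ± 0.21 in perirenal, 3.501 ± 0.17 in omental, 3.35 ± 0.01 in subcutaneous and 3.17 ± 0.22 in sternal fat. Epicardial was higher than sternal fat by 0.65 (SE 0.17, adjusted p = 0.0115; 0.77 and 0.00356 without EpC_C_4W_01_141), and sternal fat was lower than the mean of the other 4 depots (-0.41, SE 0.13, adjusted p = 0.0327). The sternal arrays read 2.92, 2.93, 3.28, 3.35 and 3.35, so those at 3.35 shared the most frequent value with other depots. Of all probe sets 20.1% were called between sternal fat and the other depots at this age, and 18.4% of all probe sets as lower in sternal fat. At 28 days both ADRB1 calls were lost after quantile normalization (0.40, adjusted p = 0.138, and -0.17, adjusted p = 0.428). The call of epicardial over sternal fat was lost in 3 of 5 alternative settings, and that of sternal fat against the other depots in 2 of 4. The sternal call was also lost without St_C_4W_41_141 (-0.34, adjusted p = 0.112) or St_C_4W_45_159 (-0.35, adjusted p = 0.11). Perirenal arrays ran from 3.36, within 0.01 of the most frequent value that 2 sternal arrays shared, to 3.85, and the difference of 0.45 from sternal fat was not called (adjusted p = 0.0775).

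ADRB3 gave almost no signal. Its most frequent value, 2.49, was found in 36 of 49 arrays, among them all 5 omental arrays at 7 days and all 10 sternal arrays. The highest values were 3.07 and 2.75 in perirenal fat at 7 days (PrR_C_1W_63_105 and PrR_C_1W_65_130), 2.91 in epicardial fat at 28 days (EpC_C_4W_03_151), 2.74 in subcutaneous fat at 7 days (Su_C_1W_108_105) and 2.73 in omental fat at 28 days (OM_C_4W_13_153). Perirenal fat at 7 days stood 0.15 above the other depots (SE 0.06, unadjusted p = 0.0335, adjusted p = 0.22). PrR_C_1W_63_105, with 3.07 for ADRB3, was also the perirenal array with the most UCP1, 8.22.

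KCNK3 was at its most frequent value of 2.69 in 28 of 49 arrays, and its few raised arrays lay in epicardial and perirenal fat. Epicardial fat read 2.69, 2.69, 2.69, 3.17 and 3.28 at 7 days and 2.69, 2.69, 2.81, 2.98 and 3.34 at 28 days. Perirenal fat read 2.69, 2.69, 2.96, 3.08 and 3.32 at 7 days and 2.69 to 2.71 at 28 days. The only call was epicardial over sternal fat at 28 days, 0.30 (SE 0.10, adjusted p = 0.0498; 0.32 and 0.0552 without EpC_C_4W_01_141), where sternal fat read 2.49, 2.49, 2.68, 2.68 and 2.69. This call was lost in each of the 5 alternative settings (adjusted p = 0.0557 to 0.21) and without any 1 of 21 arrays of that age. Perirenal fat was 0.21 above the other depots at 7 days (SE 0.09, adjusted p = 0.234).

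CIDEA, the lipid droplet protein of brown fat, showed no called difference between depots or ages. Omental fat held the highest values, 3.403 in OM_C_1W_99_122 and 3.38 in OM_C_4W_14_155, followed by 3.12 in perirenal fat (PrR_C_4W_32_146). At 28 days the omental arrays read 2.55, 2.76, 2.76, 2.95 and 3.38, the perirenal arrays 2.499 to 3.12, the subcutaneous arrays 2.54 to 2.999, the epicardial arrays 2.499 to 2.79 and the sternal arrays 2.503 to 2.55. Omental and sternal fat thus met at 2.55, and their difference of 0.34 had the lowest adjusted p of any pair, 0.0686. At 7 days all depots began at 2.49 to 2.55 and the lowest adjusted p of a pair was 0.61.

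EBF2 also gave no call with the values as deposited. It read 3.91 in 28 of 49 arrays, and the highest value, 4.66, was 1 omental array at 7 days (OM_C_1W_94_117) whose 4 companions read 3.90 to 3.91. The lowest were 3.47 in subcutaneous fat at 7 days (Su_C_1W_108_105) and 3.47 in omental fat at 28 days (OM_C_4W_11_141). Subcutaneous fat at 7 days, at 3.47, 3.65, 3.82 and 3.94, was 0.29 below the other depots (SE 0.11, unadjusted p = 0.0146, adjusted p = 0.255), and the 3 lowest of them were the 3 with CKM above 4. Quantile normalization over the arrays, gave calls that the deposited values did not, such as sternal fat higher than the other depots at 28 days by 0.47 (SE 0.07, adjusted p = 6.65e-05) where the deposited values gave 0.11 (SE 0.07, adjusted p = 0.321).

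With age, 1 of 35 differences of the members was called, ZIC1 in subcutaneous fat, against 9.07% of all such differences over the table. ZIC1 was higher at 28 than at 7 days by 0.96 (SE 0.27, adjusted p = 0.0183), and the 7 day range of 2.49 to 4.03 overlapped the 28 day range of 3.06 to 4.67. This call was lost without Su_C_1W_114_122 (0.89, adjusted p = 0.0553), Su_C_1W_111_130 (0.73, adjusted p = 0.12) or Su_C_4W_24_153 (0.83, adjusted p = 0.0604), and after quantile normalization (0.77, adjusted p = 0.114). Without the arrays with CKM above 4 the difference was -0.14, with Su_C_1W_110_126, the highest of its group, as the 1 subcutaneous array left at 7 days and 3 left at 28 days, so that this value tests no change. Next in size were LHX8 in perirenal fat, 0.66 (SE 0.37, adjusted p = 0.359), and ADRB1 in epicardial fat, -0.56 (SE 0.25, adjusted p = 0.247), neither of them called. No member's change with age differed between depots by the F test for interaction, with ZIC1 lowest (unadjusted p = 0.0345, adjusted p = 0.171; 0.0188, 0.0306 and 0.0467 without St_C_4W_42_146, Su_C_4W_22_141 and Su_C_1W_110_126), and 9.17% of all probe sets passed that test. In sternal fat ZIC1 differed by 0.47 (SE 0.26, adjusted p = 0.38), with St_C_4W_42_146 as the only array above 2.59.

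**Figure D5:**
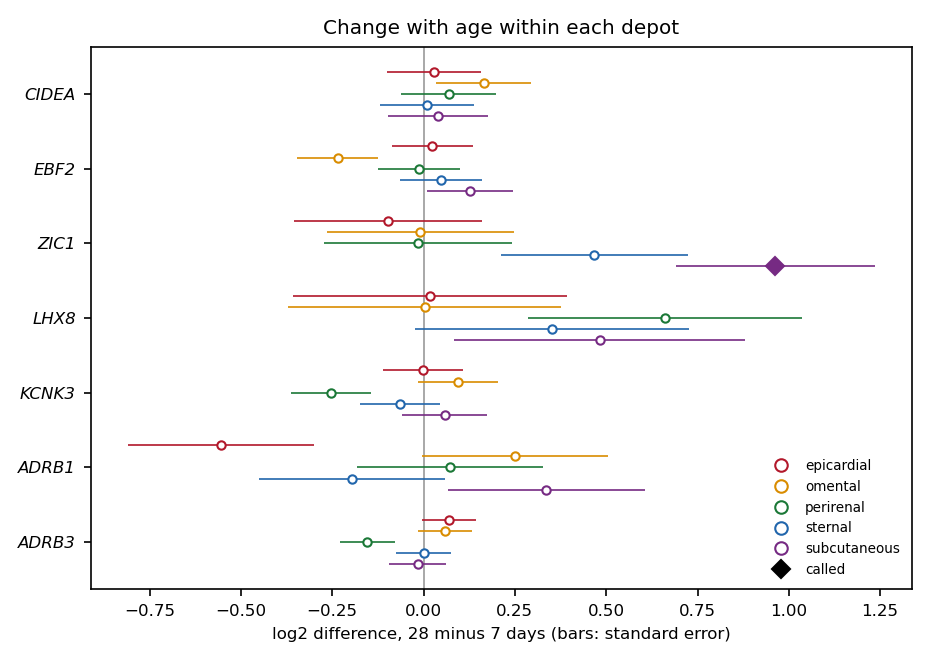
Log2 difference between 28 and 7 days (x axis) with its standard error for the 7 genes (y axis) in each depot (colours), with a filled diamond where the adjusted p was at most 0.05. ZIC1 in subcutaneous fat is the only filled diamond, and differences of EBF2, KCNK3 and ADRB3 lie between -0.25 and 0.13.

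UCP1 and its coactivator PPARGC1A fell in perirenal fat from 7 to 28 days, in arrays where no member was called. UCP1 read 5.51 to 8.22 in perirenal fat at 7 days and 2.87 to 2.999 at 28 days, a difference of -3.37 (SE 0.36, adjusted p = 1.14e-08), and PPARGC1A differed by -2.44 between the same groups (SE 0.33, adjusted p = 1.24e-06). Over the same 5 and 5 perirenal arrays 0 of the 7 members were called by limma, beside 9.32% of all probe sets. KCNK3 (-0.25) and ADRB3 (-0.15) had an unadjusted p under 0.05 there. In perirenal fat against the other depots at 7 days UCP1 stood 2.57 higher (SE 0.41, adjusted p = 0.000606). Again 0 of 7 members were called there, beside 5.11% of all probe sets. KCNK3 and ADRB3 had an unadjusted p under 0.05 in this comparison too. The share of all probe sets under that unadjusted threshold was not counted in either comparison. With 7 genes, 0 calls cannot be set apart from the shares of 9.32% and 5.11% over the table. ZIC1 and ADRB3 each sat at their most frequent value in 3 of 5 perirenal arrays at 7 days, which left little room for a fall. LHX8 was raised in the perirenal arrays with UCP1 at 5.62 and 6.32 and not in those with UCP1 at 5.51, 5.77 and 8.22, and at 28 days it was raised in the 4 perirenal arrays with UCP1 at 2.87 or 2.91.

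Other genes of the brown and beige programme, transcription factors, coactivators and enzymes of thermogenic fat, were counted from a list of 62 genes, of which 33 were measured besides the members. The F test over depots was passed by 14 of the 33 at 7 days and by 10 at 28 days, beside 8.16% and 20.0% of all probe sets. The list was written with earlier results of these data known, so its counts are a description only. In perirenal fat at 7 days 10 were higher than in the other depots and 0 lower, beside 4.58% and 0.535% of all probe sets. The table as a whole thus leaned the same way. The list median was 0.08 and the median over all probe sets 0.02. After quantile normalization 7 were higher and 0 lower. As deposited, the 10 included, besides UCP1, PPARGC1A (1.59, SE 0.24, adjusted p = 0.000446), the oestrogen-related receptor ESRRA (0.74, SE 0.14, adjusted p = 0.00265) and the kinase PDK4, which holds back glucose oxidation (0.66, SE 0.14, adjusted p = 0.00747; 0.0554 after quantile normalization). From 7 to 28 days in perirenal fat 9 of the 33 were lower and 3 higher (list median -0.07, median over all probe sets 0.01), with the same counts after quantile normalization, beside 3.09% of all probe sets lower and 6.23% higher. ESRRA fell by 1.11 on the log2 scale (SE 0.14), and ZNF423, a regulator that holds adipocytes in the white state, rose by 1.07 (SE 0.19, adjusted p = 0.000104).

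Genes of beta-adrenergic signalling and lipolysis, downstream of ADRB1 and ADRB3, came from a list of 68 with 49 measured besides the members. The F test was passed by 7 of them at 7 days and 13 at 28 days, beside 8.16% and 20.0% of all probe sets. In epicardial fat at 7 days 3 were higher than in the other depots and 3 lower, with the same counts after quantile normalization, beside 3.35% of all probe sets higher and 0.720% lower. Higher were PRKACB, a catalytic subunit of protein kinase A (1.43, SE 0.14, adjusted p = 1.08e-06), and the phosphodiesterases PDE4D (1.06, SE 0.22, adjusted p = 0.00473) and PDE3A (0.79, SE 0.11, adjusted p = 7.96e-05), which break down cyclic AMP. PDE3B, the phosphodiesterase through which insulin restrains lipolysis in adipocytes, was lower (-0.99, SE 0.25, adjusted p = 0.0229). The cardiac mean of 6.58 to 9.57 in the same epicardial arrays stood against 2.67 to 2.71 in omental and perirenal fat at that age. It was 2.64 to 2.96 in sternal and 2.66 to 6.57 in subcutaneous fat, and its part in these differences was not tested. In sternal fat at 28 days, where ADRB1 was called as lower, 9 of the 49 were lower and 0 higher as deposited, beside the 18.4% of all probe sets that were lower, but 2 lower and 6 higher after quantile normalization, so the list has no settled direction there. The lipases LIPE and PNPLA2 were at their most frequent values in 30 and 35 of 49 arrays.

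Relatives of the members by gene family (other EBF, ZIC, LIM homeodomain and KCNK genes) were listed as 38, with 13 measured. At 28 days 5 of them passed the F test over depots, LHX2, ISL1, LMO4, LHX6 and KCNK10, beside 20.0% of all probe sets, and at 7 days LMO4 alone. LHX2, a LIM homeodomain factor like LHX8, read 3.42 to 4.95 in epicardial fat at 28 days and no more than 3.55 in any other group, a difference of 1.75 from the other depots (SE 0.16, adjusted p = 3.58e-07; 1.63 after quantile normalization). ISL1, of the same class and known from heart precursors, was 1.02 higher in omental fat at 28 days than elsewhere (SE 0.22, adjusted p = 0.00601). EBF1, the early B cell factor of white and brown adipocytes alike, read 9.63 to 11.6 in these arrays and was 0.64 higher at 28 than at 7 days in perirenal fat (SE 0.17, adjusted p = 0.00981). ZIC2 read 2.59 to 3.92 in subcutaneous and 2.501 to 3.98 in sternal fat at 28 days, was not called, and was at 2.501 in St_C_4W_42_146, in which ZIC1 was raised. Of 10 measured CIDE and lipid droplet genes 2 passed the F test at 28 days (CAV1, the caveolar coat protein, and ABHD5, the activator of PNPLA2), the same share as the 20.0% of all probe sets.

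Probe sets whose pattern over the 49 arrays was most like each member were taken by Pearson correlation from 1669 with 1 symbol and a mean of at least 4, as a description with no test, and the 49 points share groups and replicate numbers. ADRB1 was most like CDH2 (r = 0.75), FMC1 (0.71) and CAMTA1 (0.71). ZIC1 was most like MACROH2A1, a histone variant (0.68), the zinc finger homeobox gene ZFHX4 (0.65) and ZDHHC3 (0.60). ZFHX4 read 5.27 to 6.67 in subcutaneous fat at 28 days and 3.998 in St_C_4W_42_146, within the 3.68 to 4.48 of its group, while MACROH2A1 read 5.54 in that array against 4.29 to 4.51 in the other sternal arrays. For the other members the closest genes were KCNK3 with FOXO6 (0.56), CIDEA with DDOST (0.55), LHX8 with OAZ1 (0.50), ADRB3 with TSACC (0.48) and EBF2 with FLI1 (0.45).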

How the data were processed

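Adipose tissue of lambs was measured on 49 arrays, 24 at 7 days and 25 at 28 days. The log2 values deposited by the authors were produced with the GCRMA method of the affy software, whose background correction uses probe sequence (versions not given in the sources used here). Sheep RNA was read by human probes, so weak binding and low expression cannot be told apart, and the number of arrays limits the precision. Symbols came from the platform annotation: 9780 of 10273 probe sets had 1 symbol, 6 several and 487 none. No column of values was left unused, and the highest correlation between 2 arrays was 0.990.

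The deposited log2 values were fitted with limma 3.58.1 in R 4.3.3, in a separate model for each age for depot comparisons and in a joint model of the 10 groups for changes with age and their interaction. Variances were moderated by empirical Bayes, and p-values of a comparison were adjusted over all probe sets (Benjamini-Hochberg). A difference was called at an adjusted p of at most 0.05. SD is over arrays and SE is from the fit. The main fits treat arrays as independent and leave out animal and litter, and each takes 1 spread per probe set over its groups. The procedure was tested on simulated data with independent normal noise. Those data held no recurring lowest values and no shared title numbers, so the test does not cover these features of the deposited values. Alternatives were quantile normalization, the replicate number as a block, a prior variance that follows the level, only the groups compared, a filter on the mean, sternal and subcutaneous arrays with CKM above 4 left out, and each array left out in turn.

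The members and gene lists were chosen with earlier results of these data known. The rule for named genes took all members, the 3 probe sets most like each, up to 4 called genes of a list per comparison, and UCP1 and PPARGC1A as reference. Genes of the family list and ZIC2, TCF21, HOXC6, LIPE and PNPLA2 were added after their values were seen, as was the margin of 0.5 for a raised array. Ages came from the titles and the age field, with which the range in the shared description disagrees, and the letter C in the titles is unexplained.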

Additional observations from a re-analysis of the deposited data

Results flagged for a closer look

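In groups of 4 or 5 arrays, 1 array stood apart from the rest of its group by Dixon's criterion in 19 of the 51 member groups tested, and 19 groups with a range under 0.1 were not tested. Chance flags about 1 in 20 groups, and groups in which the other arrays share a recurring value are flagged by any array that leaves it. ZIC1 and LHX8 stood apart together in the sternal array St_C_4W_42_146, at 4.68 and 4.51, where the other 4 sternal arrays reached 2.59 and 2.54. In subcutaneous fat at 28 days ZIC1 was low in Su_C_4W_22_141 (3.06, the others 4.26 to 4.67), LHX8 high in Su_C_4W_21_136 (5.51, the others 3.24 to 3.51), KCNK3 high in Su_C_4W_23_146 (2.98) and EBF2 low in Su_C_4W_22_141 (3.61). In epicardial fat at 28 days ZIC1 was 2.88 in EpC_C_4W_04_155, and CIDEA and ADRB3 were 2.79 and 2.91 in the same array, EpC_C_4W_03_151. In omental fat at 28 days EBF2 was 3.47 in OM_C_4W_11_141 and ADRB3 2.73 in OM_C_4W_13_153. At 7 days omental fat had CIDEA at 3.403 in OM_C_1W_99_122, EBF2 at 4.66 in OM_C_1W_94_117 and ADRB1 at 2.92 in OM_C_1W_93_105. Sternal fat at 7 days had EBF2 at 4.26 in St_C_1W_81_130, LHX8 at 2.71 in St_C_1W_84_122 and KCNK3 at 2.54 in St_C_1W_80_126. ADRB3 was 2.596 in epicardial (EpC_C_1W_32_105) and 2.74 in subcutaneous fat (Su_C_1W_108_105) at 7 days.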

How the results depend on the processing

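The call of ZIC1 in subcutaneous fat against the other 4 depots at 28 days was kept under all alternatives run. Of all 10273 probe sets the F test at 28 days called 2051 as reported. It called 1652 with the block, 1310 after quantile normalization and 1165 without the arrays with CKM above 4. At 7 days it called 838 as reported, 678 with the block and 764 after quantile normalization. Totals over all probe sets are not given for the other counts below, so falls in them are not shown to be particular to the members. With the replicate number as a block the paired fit called 0 member pair differences at 7 days and 3 at 28 days (3 and 6 as reported), 1 difference from the other 4 depots at 7 days (2 as reported) and 1 member in the F test at 28 days (3 as reported), and 26 of 35 single results kept their call status and 9 lost the call, among them the F test of LHX8 at 28 days (adjusted p = 0.221), ZIC1 in epicardial (0.0732) and sternal fat (0.0778) against subcutaneous fat at 28 days and ZIC1 in subcutaneous fat against the other 4 depots at 7 days (0.116). The numbers are not defined as animals, and deviations of same-numbered arrays correlated by 0.04 on average at 7 days and 0.08 at 28 days, over 0.1 in 6 of 33 and 12 of 39 pairs, and 10 of 24 and 14 of 22 arrays correlated best with their own number. Quantile normalization left 1 pair difference at 7 days and gave 1 member, EBF2 (adjusted p = 0.0424), whose change with age differed between depots, where 0 were called as reported. Without arrays with CKM above 4, subcutaneous fat at 7 days is 1 array, that with the highest ZIC1 level, which is assumed to vary like the other groups, so calls on that group say nothing about its spread. There 1 member passed the F test at 7 days (ZIC1), 5 differences from the other 4 depots were called at 7 days and 1 at 28 days, 0 changes with age were called, and that of ZIC1 in subcutaneous fat turned to -0.14. With only the groups compared in the fit, 0 pair differences were called at 7 days, 3 at 28 days and 0 changes with age. Leaving out 1 array at a time gave 0 to 1 and 1 to 3 members in the F tests at 7 and 28 days, 0 to 4 and 5 to 9 pair differences, 1 to 2 and 1 to 3 differences from the other 4 depots, 0 to 2 changes with age and 0 to 1 members in the interaction test. Over these 1055 single results 965 kept their call status, 84 lost and 6 gained a call. The filter on a mean of at least 4 gave no value, since 0 members reach it. The causes were not tested, apart from the fewer arrays that leaving arrays out implies.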
